A study of Mus musculus with 86 samples.

Results

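The genes described here are 10 mouse genes of the integrated stress response, taken as a named list: the transcription factors Atf4, Ddit3 and Atf3, the regulators Trib3 and Chac1, the biosynthetic enzymes Asns, Psat1 and Phgdh, and the growth-control genes Sesn2 and Ddit4. They are 10 of 53664 annotated genes with a transcript in the CAD and N2A data and of 52631 in the transgene data. All 10 passed the filter on low counts in each of the 15 comparisons made, so none was lost from any count below. All are annotated as protein coding.

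RNA was measured in 36 polyA RNA-seq libraries of soma and neurites from mouse neuronal lines, in 12 groups of 3 libraries. CAD is a catecholaminergic line derived from mouse central nervous system and N2A is a mouse neuroblastoma line. In the knockout experiments every CAD and N2A cell carried CRISPR-inactivated endogenous Tardbp alleles, in selected single-cell clones, and an HA-tagged TDP-43 transgene under a doxycycline-off promoter (genotype TetOff TDP-43). Without doxycycline this transgene was the only functional allele, and these cells are called wild-type. Knockout cells had doxycycline for 48 h, at 2 µg/mL by the labels and at a lower dose by the study's methods, in serum-free medium on porous membranes through which only neurites pass. In the transgene experiment CAD cells kept their endogenous alleles and expressed a single-copy, HA-tagged, doxycycline-inducible TDP-43 that was either WT or Q331K, an ALS-linked substitution. Both transgene arms had the drug. Knockout and doxycycline therefore cannot be told apart in CAD and N2A cells, and line cannot be told apart from clone. Nothing in the labels says whether the 3 libraries of a group came from separate cultures, so the p-values measure the spread between these libraries only.

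The integrated stress response starts when 1 of several kinases phosphorylates the translation factor eIF2α. General protein synthesis then falls while translation of Atf4 mRNA rises, and the ATF4 protein induces genes for amino acid synthesis and transport, for tRNA charging and for adaptation or cell death. Atf4 is controlled largely at translation, so its mRNA level is an indirect readout. Doxycycline is known to inhibit translation by mitochondrial ribosomes, and mitochondrial stress can itself start the response.

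ATF4 and its partners of the C/EBP family bind composite elements of the form TGATGNAA. This motif was looked for on both strands of RefSeq promoter windows of GRCm38.p6, which run from 250 bases before to 50 bases after a start. It is shown because it is the sequence through which the factor of this pathway reads its target genes. Atf3, Asns, Trib3 and Chac1 held 1 match each, and the 7 windows of the other 6 genes held none. Of all 32851 windows 3.97% held a match. The matches are given below in 30 bases of the gene's own strand, 5′ to 3′, with the motif or its reverse complement in capitals.
Atf3: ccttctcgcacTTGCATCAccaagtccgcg
Asns: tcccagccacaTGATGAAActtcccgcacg
Trib3: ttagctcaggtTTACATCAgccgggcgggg
Chac1: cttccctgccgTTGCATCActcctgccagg
These windows lie at chr1:191183425-191183454 (minus strand) for Atf3, chr6:7693214-7693243 (minus strand) for Asns, chr2:152344028-152344057 (minus strand) for Trib3 and chr2:119351038-119351067 (plus strand) for Chac1. The first motif base lay 110 bases before the start for Atf3, 23 before it for Asns, 193 before it for Chac1 and 14 after it for Trib3. Binding was not measured in these libraries.

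CAD and N2A libraries held 22726534 to 32895542 estimated counts and the transgene libraries 9783050 to 15870647, so low values are less precise in the transgene experiment. Tardbp, the targeted gene, fell by 2.52 (log2, SE 0.08, adjusted p = 3.35e-12) in CAD soma and by 1.78 (SE 0.08, adjusted p = 2.58e-09) in N2A soma, where the transgene and any remaining endogenous transcript are counted together. Of 12 pan-neuronal markers 10 reached 1 TPM (a length-corrected share of the transcripts of a library) in every group, while the 12 glial, endothelial and fibroblast markers summed to at most 12.3 TPM in any library with Cldn5 at 0 in all. The catecholaminergic markers Th, Dbh, Ddc and Slc18a2 were low throughout, at a sum of 12.7 to 23.5 TPM in CAD wild-type soma and 36.8 to 55.4 TPM in CAD knockout soma. Th itself, the defining enzyme of catecholamine synthesis, was at only 1.81 to 3.18 TPM in CAD wild-type soma.

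In wild-type soma the 10 genes spanned a wide range of levels, compared here in TPM, which is per transcript length. In CAD cells Asns (317 ± 64, SD, n = 3) and Atf4 (227 ± 37.5) led, and their libraries overlapped. Psat1 (138 ± 26.7) and Ddit4 (100 ± 19.9) followed and also overlapped each other. Phgdh (67.8 ± 7.18) stood alone. Chac1, Trib3 and Ddit3 lay together at 36.8 ± 7.48, 35.5 ± 7.7 and 33.8 ± 7.98 TPM, each overlapping the next. Sesn2 (9.8 ± 1.95) and Atf3 (5.07 ± 0.981) were lowest and did not overlap each other. Among the 14504 genes at 1 TPM or more in CAD wild-type soma, Asns stood at percentile 98 and Atf3 at percentile 28.5. The list thus held both strongly and weakly expressed genes in these cells.

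N2A wild-type soma held more of most of these mRNAs. Atf4 (409 ± 61.3 TPM) and Asns (406 ± 44.7) led and overlapped, followed by Phgdh (198 ± 17.7) and Psat1 (154 ± 24.1), which overlapped Ddit4 below it. Ddit4, Trib3 and Ddit3 lay together at 119 ± 18.4, 115 ± 12.8 and 114 ± 7.82 TPM. Chac1 (55.3 ± 6.79), Sesn2 (36.1 ± 5) and Atf3 (19.7 ± 3.03) closed the order with no overlap between neighbours.

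Tested on normalised counts, 7 of the 10 genes were higher in N2A than in CAD wild-type soma and none was lower, in a comparison in which 61.1% of 19700 genes were called (27.7% higher and 33.3% lower). A gene is called here and below when edgeR's quasi-likelihood test gave it an adjusted p under 0.05. Normalised CPM (counts scaled to library size, with TMM factors that align the bulk of genes between libraries) are used for each comparison of samples. Atf3, a stress-induced bZIP factor, was 3.32-fold higher (log2 1.73, SE 0.14, adjusted p = 1.41e-10). Sesn2, a leucine sensor that restrains mTORC1, was 3.19-fold higher, and Ddit3, which encodes the pro-apoptotic factor CHOP, was 2.94-fold higher. Trib3, a pseudokinase that restrains ATF4 and CHOP, was 2.7-fold and Phgdh, the first enzyme of serine synthesis, 2.55-fold higher. Atf4 was 1.55-fold and Chac1, which degrades glutathione, 1.31-fold higher. The differences of Asns (log2 0.10, 95% interval -0.08 to 0.28), Ddit4 (0.03, -0.15 to 0.22) and Psat1 (-0.11, -0.28 to 0.07) were within the spread between libraries. Under total-count scaling, which moved the median gene from 0.07 to 0.18, 8 of the 10 were called higher. That scaling called 61.2% of all genes, 6225 higher and 5841 lower. Line, clone and library series cannot be told apart here.

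**Figure D1:**
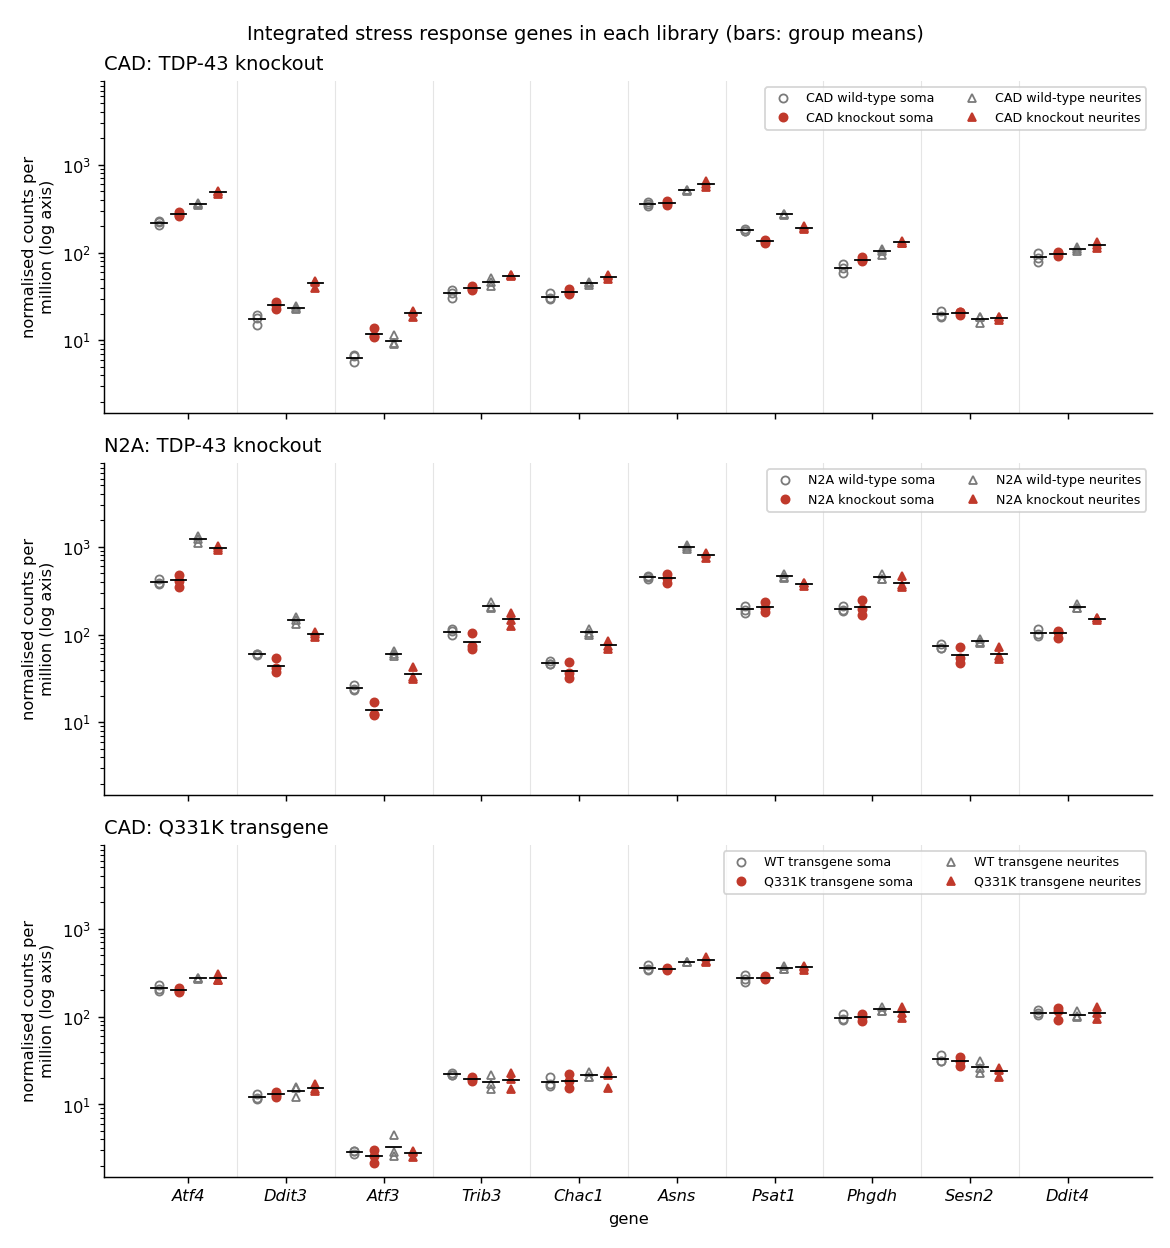
Normalised CPM (TMM scaling, log axis) of the 10 genes in each library, with knockout or Q331K filled, soma as circles, neurites as triangles and group means as bars. Ddit3 and Atf3 lie higher in CAD knockout and lower in N2A knockout libraries than in wild-type ones, while the WT and Q331K transgene groups overlap for nearly every gene. The offset of neurites from soma depends on the scaling: under total-count scaling none of the 10 was called higher in CAD wild-type neurites, and 9 were in N2A. Among all genes 867 of 17343 and 4585 of 17912 were called higher under that scaling.

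The first question was whether these genes differed between knockout and wild-type cells. In CAD soma 5 of the 10 were called, 4 higher and 1 lower, where 32.7% of 17343 genes were called (15.9% higher and 16.8% lower). The median log2 change of the 10 was 0.19 against 0.00 over all genes tested. The libraries of the groups did not overlap for 6 of the 10, and for 43.9% of all genes. In bulk RNA a change per cell and a change in the mix of cells cannot be told apart.

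The 3 transcription factors were each higher in CAD knockout soma. Atf3 was at 6.56, 5.66 and 6.9 CPM in wild-type libraries and at 10.9, 13.7 and 11.1 CPM in knockout libraries. All knockout libraries lay above all wild-type ones, a 1.87-fold rise (log2 0.90, SE 0.12, adjusted p = 1.68e-05). Ddit3 was at 17.9, 15 and 19.5 CPM in wild-type and 25.3, 27.5 and 22.5 CPM in knockout libraries. This was a 1.44-fold rise without overlap (log2 0.52, SE 0.10, adjusted p = 8.53e-04). Atf4, the central factor, was at 223, 207 and 228 CPM in wild-type and 260.0, 289.9 and 271 CPM in knockout libraries, a 1.25-fold rise (log2 0.32, SE 0.07, adjusted p = 0.00155). In mean TPM the differences in CAD soma were smaller, at 0.71 for Atf3, 0.32 for Ddit3 and 0.15 for Atf4, and were not tested. In TPM the libraries of Ddit3 and of Atf4 overlapped between the genotypes, and those of Atf3 did not. Of the other genes only Phgdh (0.14) was higher in mean TPM. Chac1 was at 0.00, while Psat1 (-0.21), Asns (-0.16), Sesn2 (-0.13), Ddit4 (-0.04) and Trib3 (-0.02) were lower.

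The 2 enzymes of serine synthesis went opposite ways in CAD soma. Phgdh was at 73.5, 58.5 and 67.5 CPM in wild-type and 79.9, 82 and 88.2 CPM in knockout libraries (log2 0.33, SE 0.08, adjusted p = 0.00489). Psat1, the aminotransferase of the next step, was at 176, 175 and 188 CPM in wild-type and 127, 141 and 136 CPM in knockout libraries (log2 -0.42, SE 0.06, adjusted p = 8.21e-05). In CPM neither pair of groups overlapped, while in TPM both did. Phgdh was at 59.8 to 73.7 TPM in wild-type and 61.6 to 86.6 TPM in knockout libraries, and Psat1 at 108 to 159 and 98.6 to 134 TPM. The fall of Psat1 was lost when counts were scaled for the length of the transcripts in use (log2 -0.02, SE 0.08, adjusted p = 0.889), and its transcripts are described separately below.

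The other 5 genes were not called in CAD soma. Trib3 (log2 0.19, 95% interval 0.02 to 0.36, adjusted p = 0.107) and Chac1 (0.19, 0.05 to 0.33, adjusted p = 0.0599) came closest. Asns, which makes asparagine, was at 362, 338 and 382 CPM against 353, 389 and 368 CPM, and its interval of -0.11 to 0.18 spans zero. Sesn2 changed by 0.06 (-0.11 to 0.22) and Ddit4, an inhibitor of mTORC1 also known as REDD1, by 0.14 (-0.02 to 0.30). Without replicate 3 of the CAD wild-type soma, the wild-type library with the highest value of 9 of the 10 genes, Trib3, Chac1 and Ddit4 were called higher too and the count of calls rose from 5 to 8.

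In CAD neurites 8 of the 10 genes were called, 7 higher and 1 lower, where 36.1% of all genes were called (17.3% higher and 18.8% lower). The median log2 change of the 10 was 0.25 against 0.00 over all genes. The groups did not overlap for the same number of genes, 8, and for 46.6% of all genes. Under total-count scaling the same counts of 7 higher and 1 lower were obtained, where 34.2% of all genes were called (3859 higher and 2065 lower). That scaling moved the median gene to 0.11 and the share of higher calls among all calls from 47.9% to 65.1%.

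The rises in CAD neurites were again led by Atf3 and Ddit3. Atf3 went from 11.4, 9.35 and 9.13 CPM to 21.6, 20.8 and 18.7 CPM, a 2.05-fold rise (log2 1.04, SE 0.11, adjusted p = 3.29e-06). Ddit3 went from 23.1, 23 and 24.9 CPM to 48, 46.8 and 39.8 CPM, a 1.89-fold rise (log2 0.92, SE 0.10, adjusted p = 3.49e-06). Every knockout library lay above every wild-type one for both factors. Atf4 went from 360.3, 349 and 367 CPM to 496, 505 and 461 CPM (log2 0.44, SE 0.07, adjusted p = 7.43e-05). Phgdh went from 104, 94.6 and 111 CPM to 136, 129 and 129 CPM (log2 0.35, SE 0.08, adjusted p = 0.00278).

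Smaller rises in CAD neurites were called for Asns (log2 0.25, SE 0.07, adjusted p = 0.0139), Chac1 (0.25, SE 0.07, adjusted p = 0.0134) and Trib3 (0.24, SE 0.09, adjusted p = 0.0431). These 3 calls rested on few libraries. Without replicate 2 of the wild-type neurites the count fell from 8 to 5 and all 3 were lost. Asns was also lost without knockout replicate 1, Chac1 without knockout replicate 2 and Trib3 without wild-type replicate 1 or any 1 of the knockout libraries. Asns kept a log2 change of 0.19 to 0.31 in these fits, Chac1 of 0.22 to 0.29 and Trib3 of 0.15 to 0.32. Psat1 was at 272, 268 and 277 CPM in wild-type and 202, 189 and 184 CPM in knockout neurites (log2 -0.51, SE 0.06, adjusted p = 1.04e-05). Sesn2 (0.03, 95% interval -0.15 to 0.20) and Ddit4 (0.14, -0.02 to 0.31) were not called.

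The catecholaminergic markers moved both ways beside these genes in CAD cells. Their sum did not overlap between the genotypes in soma (12.7 to 23.5 TPM in wild-type and 36.8 to 55.4 TPM in knockout libraries), and Dbh, which makes noradrenaline, was called higher in soma (1.42) and neurites (1.36). Th was called lower in soma (-0.75, adjusted p = 0.00927) and in neurites (-1.21, adjusted p = 2.20e-04). The part of these markers in the result was not tested. The share of counts from the mitochondrial genome overlapped between the genotypes, at 4.183% to 6.273% in wild-type soma and 4.807% to 7.003% in knockout soma, and at 14.465% to 22.242% and 13.842% to 19.47% in neurites.

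**Figure D2:**
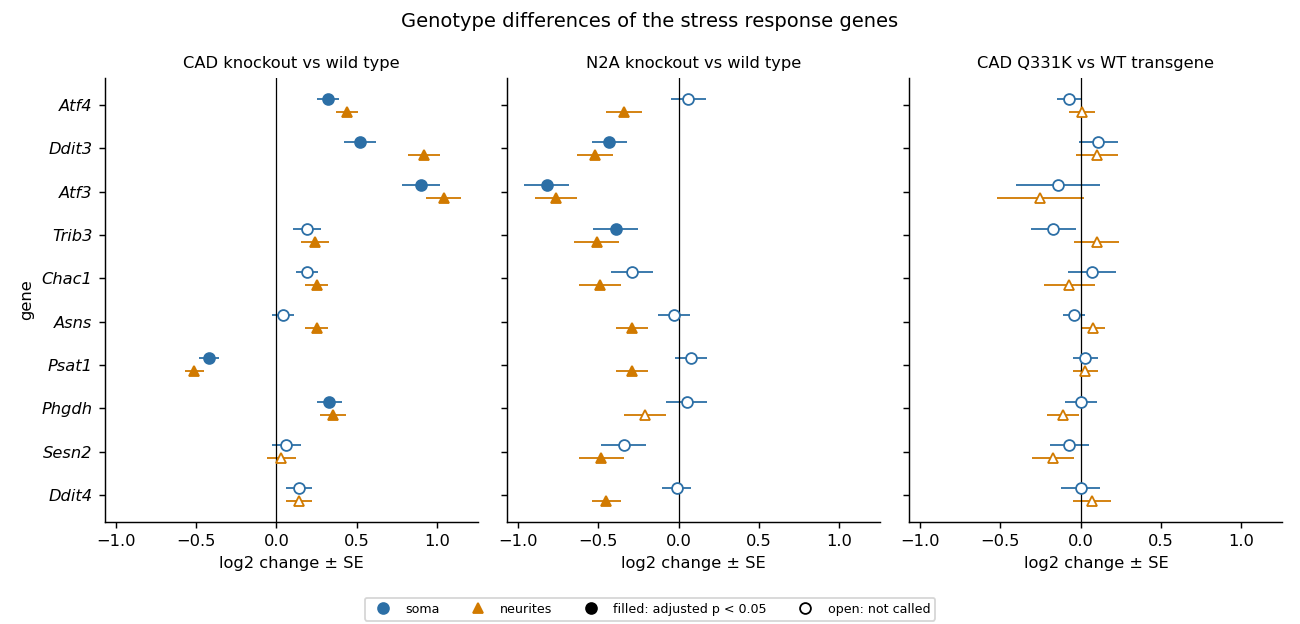
Log2 change ± SE of each gene between genotypes (TMM scaling), in soma (circles) and neurites (triangles), filled where called. In CAD knockout all genes but Psat1 lie at or right of zero, in N2A knockout neurites all lie left of it, and none is called for Q331K. Under total-count scaling Atf4, Psat1 and Phgdh of N2A soma, all uncalled, move from right to left of zero. In mean TPM only 4 of the 10 genes were higher in CAD knockout soma, and the share over all genes was not computed.

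Psat1 was the only one of the 10 genes that fell in CAD knockout cells, and its annotated transcripts did not move together. They were compared after their values had been seen, since the length-scaled fit had ended the call in CAD soma. In CAD neurites that fit kept the call of the gene (log2 -0.30, SE 0.08, adjusted p = 0.00763). Psat1-201, the full-length coding transcript of 9 exons and 2617 bases, was at 73.9, 99.6 and 119 TPM in CAD wild-type soma and at 49.2, 54.6 and 67.4 TPM in knockout soma. Psat1-202, annotated as a processed transcript of 3 exons and 438 bases, was at 6.56, 7.79 and 6.09 TPM in wild-type soma and at 28.8, 39.9 and 32.5 TPM in knockout soma. The short transcript thus went up where the long one went down, with no overlap between the genotypes for either. It made up 3.84% to 6.08% of the Psat1 TPM of wild-type soma and 24.3% to 31.7% of that of knockout soma.

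The junctions where both transcripts part are shown because they are the sequences by which reads can tell them apart. Both lines below are 5′ to 3′ on the transcript, with the shared end of exon 5 of Psat1-201 in lower case and what each transcript has next in capitals.
Psat1-201: gtggatgtttccaagTTTGGTGTGATTTTC
Psat1-202: gtggatgtttccaagGTAAAGAATGAAAGg
The capitals of Psat1-202 are the 14 bases by which it lengthens that exon into the intron, starting with GT, and the final base in lower case opens its last exon. That last exon has 119 bases and lies at chr19:15916839-15916957 (GRCm38, minus strand, GENCODE vM21), inside the intron between exons 5 and 6 of Psat1-201 at chr19:15915034-15917076. Psat1-202 ends there in taactttgtcccATTAAAatttcacacccc, where the capitals mark ATTAAA, a common variant of the polyadenylation signal, with 12 bases after it. Of its 438 bases 133 are not in Psat1-201, and the other 305 are shared.

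In a fit over all transcripts Psat1-202 was 5.45-fold higher in CAD knockout soma (log2 2.45, SE 0.37, adjusted p = 0.00224) and Psat1-201 was lower (-0.56, SE 0.07, adjusted p = 6.14e-04), where 7.94% of 49163 transcripts were called. In neurites Psat1-202 went from 1.46, 0.879 and 1.42 TPM to 6.26, 9.14 and 5.03 TPM, a 4.41-fold rise (log2 2.14, SE 0.38, adjusted p = 0.00456). Psat1-201 fell there by 0.66 (SE 0.07, adjusted p = 1.91e-04), where 10.8% of transcripts were called. Leaving out any 1 soma library kept the rise of Psat1-202 at 2.29 to 2.62. The estimated counts behind Psat1-202 were low, 26.7 to 46.6 in wild-type soma and 155 to 228 in knockout soma, and Salmon's own uncertainty in dividing reads between transcripts was not carried into this test.

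The same transcript was not called in N2A cells. Psat1-202 was at 11.2, 13.8 and 12.2 TPM in N2A wild-type soma and at 8.54, 3.48 and 3.87 TPM in knockout soma (2-fold lower, SE of 0.67 on the log2 scale, adjusted p = 0.45, with 8.43% of transcripts called). Whether this differs from the CAD response was not tested. In the transgene libraries it was at 0 to 6.66 TPM, too low to pass the filter.

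**Figure D3:**
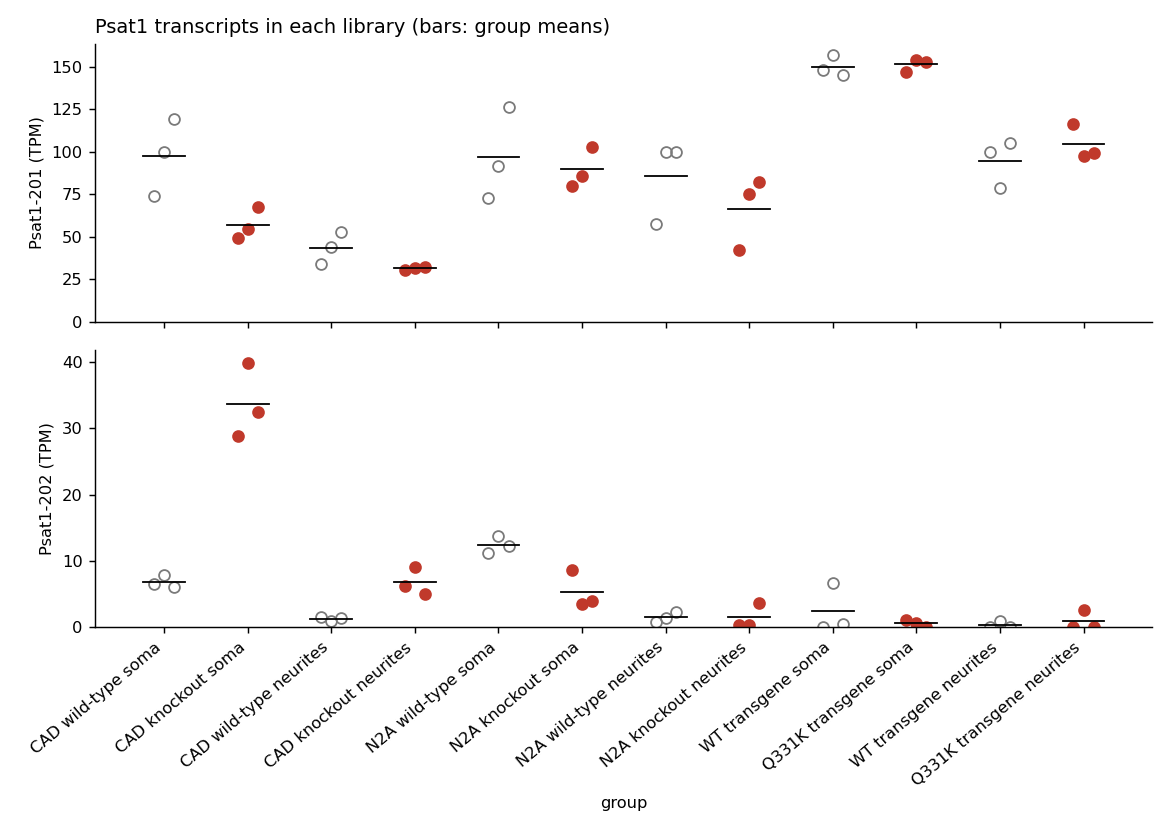
TPM of Psat1-201 (top) and Psat1-202 (bottom) in each library of the 12 groups, with knockout or Q331K filled and group means as bars. Psat1-202 reaches 28.8 to 39.9 TPM in CAD knockout soma and stays at or under 13.8 TPM in every library of the other 11 groups.

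In N2A soma 3 of the 10 genes were called and all 3 were lower, where 29.3% of 17912 genes were called (18.5% higher and 10.9% lower). The median of the 10 was -0.16 against -0.02 over all genes. Atf3 was at 23.4, 23.8 and 26.5 CPM in wild-type and 12.2, 12.4 and 17.1 CPM in knockout libraries, 1.77-fold lower without overlap (log2 -0.82, SE 0.14, adjusted p = 5.15e-04). Ddit3 was at 60.7, 60.6 and 58 CPM in wild-type and 37.6, 41.2 and 53.9 CPM in knockout libraries (log2 -0.43, SE 0.11, adjusted p = 0.00985). These groups did not overlap either, while 42.1% of all genes had none. Trib3 was at 109, 99.1 and 115 CPM against 69.3, 73.6 and 104 CPM (log2 -0.39, SE 0.14, adjusted p = 0.0495), with overlap.

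Replicate 3 of the N2A knockout soma held the highest of the 3 knockout values for 9 of the 10 genes. Without it 5 genes were called, with Chac1 and Sesn2 added to the 3. The call of Atf3 held without any 1 library, with a change of -0.94 to -0.65. The calls of Ddit3 and Trib3 were both lost without wild-type replicate 2 or 3 or knockout replicate 1 or 2, which left a count of 1 each time, and that of Trib3 also without wild-type replicate 1. The replicate numbers were taken to pair these samples from the data, not from the labels. Same-numbered wild-type and knockout soma libraries deviated together (r of 0.549, 0.123 and 0.324), though weakly for replicate 2. CAD soma, with r of 0.482, 0.0894 and 0.264, differed little in this but was not taken as paired. The main counts of both lines, and the test of the difference between them, used no such block. A blocked fit of only the CAD soma libraries compared also called more genes than the main fit, as given below. With the number as a block 4 genes were called in N2A soma, Sesn2 (log2 -0.35, SE 0.11, adjusted p = 0.023) being added. In a blocked fit of only the 6 N2A soma libraries 5 were called. Total-count scaling also gave 5 calls, where 27.1% of all genes were called (2389 higher and 2457 lower). It moved the median gene to -0.11 and the share of higher calls from 62.9% to 49.3%.

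The other genes of N2A soma changed little. Atf4 was at 379, 387 and 425 CPM in wild-type and 351, 407 and 484 CPM in knockout libraries, with a log2 change of 0.06 (95% interval -0.16 to 0.28). Asns (-0.03), Ddit4 (-0.01), Phgdh (0.05) and Psat1 (0.08) likewise had intervals that span zero, none beyond 0.31 in size. Sesn2 (-0.34, adjusted p = 0.0759) and Chac1 (-0.29, adjusted p = 0.0996) were lower without being called.

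In N2A neurites 9 of the 10 genes were called, all lower, where 21% of all genes were called (10.8% higher and 10.3% lower). The median of the 10 was -0.47 against -0.01 over all genes. The groups did not overlap for these 9, and for 37.5% of all genes. Total-count scaling, which lowered the share of higher calls from 51.2% to 37.3%, also called 9 lower. It called 24.4% of all genes, 1626 higher and 2738 lower. In mean TPM, which was not tested, the differences were smaller, at -0.53 for Atf3, -0.30 for Ddit3, -0.14 for Atf4, -0.07 for Asns and -0.05 for Psat1, and Phgdh lay at 0.03.

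Atf3 fell most in N2A neurites, from 64.5, 60.4 and 56.6 CPM to 33.1, 31.1 and 43 CPM (log2 -0.76, SE 0.13, adjusted p = 7.16e-04). Ddit3 went from 157, 147 and 131 CPM to 107, 95 and 103 CPM (log2 -0.52, SE 0.11, adjusted p = 0.00352). Ddit4 went from 225, 199 and 199 CPM to 155, 154 and 145 CPM (log2 -0.45, SE 0.09, adjusted p = 0.00217). These 3 calls held without any 1 library. Trib3 (-0.51), Chac1 (-0.49), Sesn2 (-0.48), Atf4 (-0.34), Asns (-0.29) and Psat1 (-0.29) were called at adjusted p-values between 0.0133 and 0.0429, and each lost its call in 3 to 6 of the 6 fits that left out 1 library. The count fell to 3 without wild-type replicate 1, knockout replicate 1 or knockout replicate 2, and to 5 without wild-type replicate 2. Phgdh was not called (-0.21, 95% interval -0.47 to 0.04), and the call of Psat1 was lost with length-scaled counts (-0.24, SE 0.10, adjusted p = 0.137).

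The share of counts from the mitochondrial genome did not overlap between the genotypes in N2A cells. It was 3.817% to 6.781% in wild-type and 8.537% to 13.956% in knockout neurites, and 4.101% to 6.213% and 6.911% to 8.945% in soma. Its part in the falls of the 10 genes was not tested.

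The difference between the lines was tested itself, as the N2A knockout response minus the CAD knockout response in a fit of the 24 libraries. In soma 3 of the 10 genes were called, 2 lower and 1 higher, where 20.1% of 19700 genes were called (14.7% higher and 5.4% lower). The responses of Atf3 differed by -1.65 (SE 0.20, adjusted p = 2.46e-06) and those of Ddit3 by -0.88 (SE 0.17, adjusted p = 6.10e-04), both being higher in CAD and lower in N2A knockout. The responses of Psat1 differed by 0.58 (SE 0.13, adjusted p = 0.00219), a call lost with length-scaled counts (0.12, SE 0.14, adjusted p = 0.586). Total-count scaling moved the median gene to -0.13 and the share of higher calls from 73.1% to 48%, and called 5 of the 10. It called 14.5% of all genes, 1366 higher and 1481 lower. Without replicate 3 of the N2A knockout soma 6 were called, with Trib3, Chac1 and Sesn2 added.

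In neurites 8 of the 10 responses differed, all lower in N2A, where 15.6% of genes were called (9.76% higher and 5.84% lower). The differences were -1.74 for Atf3 (SE 0.19, adjusted p = 5.66e-07), -1.38 for Ddit3 (SE 0.17, adjusted p = 1.77e-06) and -0.73 for Atf4 (SE 0.14, adjusted p = 6.37e-04). Those of Asns, Trib3, Chac1, Ddit4 and Phgdh lay between -0.69 and -0.49. Phgdh (adjusted p = 0.0446) lost its call in 10 of the 12 fits that left out 1 library, all but those without wild-type CAD replicate 3 or knockout N2A replicate 3, and Asns lost its call without wild-type N2A replicate 1. Sesn2 (-0.45, adjusted p = 0.104) and Psat1 (0.27, adjusted p = 0.167) were not called. Total-count scaling moved the median gene to -0.20 and the share of higher calls from 62.6% to 24.3%, and called 9. It called 23.2% of all genes, 1112 higher and 3465 lower.

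Both transgene arms had doxycycline, so the drug does not separate them. No gene of the 10 was called between Q331K and WT transgene cells in soma or in neurites, and 0 of 13940 genes were called by edgeR in either compartment (0% called). At an unadjusted p under 0.05, 995 genes passed in soma and 1372 in neurites, none of them among the 10, and DESeq2 called 23 and 53 genes. The log2 changes of the 10 ran from -0.17 to 0.11 in soma and from -0.25 to 0.10 in neurites. Groups overlapped for 9 of the 10 in soma, all but Trib3, and for all 10 in neurites, while 14.1% and 13.8% of all genes did not overlap.

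The intervals give the precision of these values. Atf4 was at 204, 198 and 232 CPM with the WT and 193, 195 and 214 CPM with the Q331K transgene in soma, a change of -0.07 (95% interval -0.23 to 0.09). Ddit3 was at 11.9, 11.4 and 13.1 CPM against 12.3, 12.8 and 13.9 CPM (0.11, -0.14 to 0.35). Atf3 was the least abundant, at 2.75 to 2.98 CPM against 2.17 to 3.03 CPM, and had the widest interval (-0.14, -0.64 to 0.36). In neurites the interval of Atf3 ran from -0.77 to 0.27. The other 9 had intervals within -0.44 to 0.37 in soma and within -0.42 to 0.38 in neurites.

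The second question was where these mRNAs lie, measured as the Localization Ratio (LR), the log2 level in neurites over that in soma. Its sign for these genes depended on the scaling, and the cause was not tested. Under TMM scaling 9 of the 10 had a higher level in CAD wild-type neurites (54.2% of genes called, 28.8% higher and 25.4% lower), while under total-count scaling none was called higher and 2, Sesn2 and Ddit4, were called lower. Total-count scaling moved the median gene from -0.02 to -0.69 and the share of higher calls from 53.1% to 6.88%. Among all 17343 genes it called 867 higher and 11741 lower. Relative to the median gene 9 of the 10 lay higher under either scaling. In TPM all 10 were lower in CAD neurites, Sesn2 most (-1.86), and the other 9 had log2 differences of -1.39 or closer to zero. The 12 pan-neuronal markers also summed lower there, to 784 to 1291 TPM against 1920 to 2870 TPM in soma. The TPM shift over all genes was not computed, so these signs are not read as depletion of the 10.

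Atf4 had the highest LR in CAD wild-type cells under TMM scaling, 0.71 (SE 0.07), which was 0.04 (SE 0.08) under total-count scaling. Phgdh (0.63 and -0.04), Atf3 (0.64 and -0.03) and Psat1 (0.60 and -0.07) followed, with the total-count value second. Asns and Chac1 (both 0.50 and -0.17), Ddit3 and Trib3 (both 0.44 and -0.23) and Ddit4 (0.33 and -0.34) also changed sign. Sesn2 was lowest at -0.16 and -0.83, the only one of the 10 below zero under both.

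In N2A wild-type cells the LR of 9 of the 10 was higher under both scalings, where 71.8% of genes were called (36.7% higher and 35.1% lower) with TMM. Atf4 was at 379, 387 and 425 CPM in soma and 1331, 1224 and 1112 CPM in neurites, a LR of 1.62 (SE 0.11, adjusted p = 1.44e-08) that was 1.28 under total-count scaling. The other called genes had LRs of 0.98 to 1.30 with TMM and 0.64 to 0.96 with total counts. Sesn2 was not called (0.19 and -0.15). Total-count scaling moved the median gene from -0.03 to -0.37 and the share of higher calls from 51.1% to 35.2%. It called 4585 of 17912 genes higher, and all 10 lay above its median gene. In TPM only Atf4 was higher in N2A neurites (0.06), and the other 9 were lower. The pan-neuronal markers summed to 765 to 1367 TPM there and to 1662 to 2124 TPM in soma, and the TPM shift over all genes was not computed.

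In CAD cells with the WT transgene 4 of the 10 had a higher LR under TMM (39.5% of genes called, 20.6% higher and 18.9% lower), Atf4 0.38, Psat1 0.39, Phgdh 0.30 and Asns 0.23, all of which turned negative (-0.14, -0.13, -0.22 and -0.29) under total-count scaling. That scaling called 4 lower, with the median gene at -0.53 and the share of higher calls going from 52.1% to 7.59%. Among all 13940 genes it called 8436 lower. The TMM count fell to 2 without replicate 1 or replicate 2 of the WT transgene soma, Asns and Phgdh being lost both times, and Phgdh also without neurite replicate 3.

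**Figure D4:**
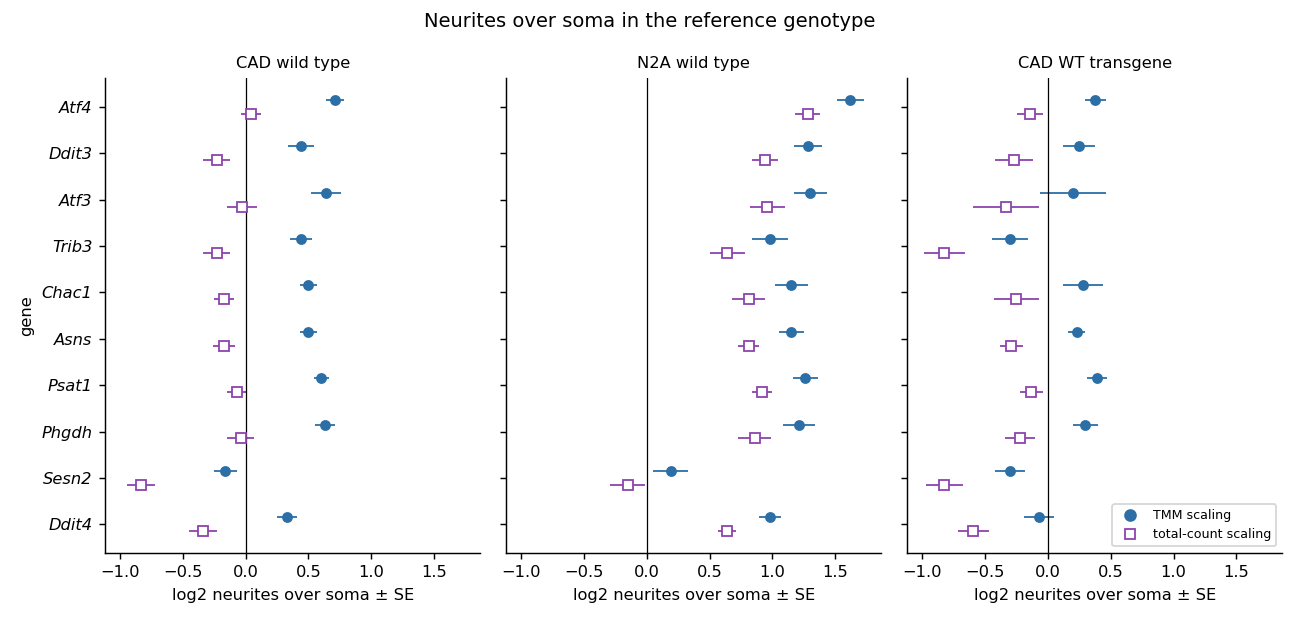
LR ± SE, the log2 level in neurites over soma, of each gene in the reference genotype of the 3 experiments under TMM (filled circles) and total-count scaling (open squares). In CAD cells 8 of the 10 change sign between the scalings, while in N2A cells 9 stay right of zero under both. Sesn2 lies lowest or joint lowest in every panel.

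Few of these LRs were called as different between knockout and wild-type cells. In CAD cells 0 of the 10 LR changes were called by edgeR or by DESeq2, 1 passed an unadjusted p under 0.05, and 0.98% of all genes were called. The LR changes ran from -0.09 to 0.40, with Ddit3 highest (0.40, SE 0.14, adjusted p = 0.312). In N2A cells only Ddit4 was called (-0.44, SE 0.13, adjusted p = 0.0471), where 8.46% of genes were called (3.13% higher and 5.33% lower). Ddit4 itself was not called in N2A soma and was lower in knockout neurites. This call was lost in 10 of the 12 fits that left out 1 library, all but those without wild-type soma replicate 3 (-0.58) or knockout soma replicate 1 (-0.58), with values of -0.48 to -0.39. Without knockout soma replicate 1 the count rose to 4, without wild-type soma replicate 3 it stayed at 1, and without any 1 of the other 10 libraries it was 0. With Q331K 0 of the 10 LR changes were called by edgeR or DESeq2 and 0 passed an unadjusted p under 0.05, as 0 genes overall were called (605 at an unadjusted p under 0.05).

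Beyond the 10, lists of 79 further genes of the pathway and of the protein-folding responses next to it were counted. In CAD knockout 21 of 77 tested were called higher and 15 lower in soma, where 15.9% and 16.8% of all genes were. In CAD neurites 23 were higher and 13 lower, against 17.3% and 18.8% of all genes, so the lower calls were near the background in both compartments. In N2A knockout 9 of 76 were called higher and 20 lower in soma (18.5% and 10.9% of all genes), and 5 higher and 20 lower in neurites (10.8% and 10.3%). Total-count scaling gave 17 higher and 15 lower in CAD soma and 31 higher and 7 lower in CAD neurites. Of all 17343 genes it called 2345 higher and 2575 lower in CAD soma, and 3859 and 2065 in CAD neurites. In N2A it gave 5 higher and 23 lower in soma and 3 higher and 29 lower in neurites. Of all 17912 genes it called 2389 higher and 2457 lower in N2A soma, and 1626 and 2738 in N2A neurites. No gene of these lists was called between Q331K and WT, against 0 called overall.

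Of 10 genes for the eIF2α kinases, their relay and the phosphatase, 3 were called higher in CAD soma and none lower, and 2 were higher and 3 lower in N2A soma. With 32.7% and 29.3% of all genes called in either direction, the CAD soma count is near the background. In neurites 3 were higher and 2 lower in CAD cells, and 3 were higher and 3 lower in N2A cells, where 36.1% and 21% of all genes were called. Eif2ak4 fell in CAD neurites (-0.30). Ppp1r15b fell in CAD neurites (-0.23), N2A soma (-0.35) and N2A neurites (-0.28). Eif2ak1, the heme-regulated kinase that relays mitochondrial stress, was higher in all 4 knockout comparisons, by 0.68 (SE 0.05) in CAD soma, 0.80 (SE 0.05) in CAD neurites, 0.80 (SE 0.09) in N2A soma and 0.57 (SE 0.09) in N2A neurites, each also called under total-count and upper-quartile scaling. Ppp1r15a, which encodes the stress-induced phosphatase subunit GADD34, rose by 0.50 (SE 0.09) in CAD soma and fell by 0.69 (SE 0.12) in N2A soma and by 0.75 (SE 0.12) in N2A neurites. Its direction was thus that of Atf3 and Ddit3 in these comparisons. They leave out CAD neurites, where Ppp1r15a was not among the 2 largest called rises or falls of the list. Of 6 bZIP partners, Atf5 was the 1 called in CAD soma (0.48, SE 0.08), and 2 were called lower in N2A neurites, Nupr1 (-0.54) and Cebpg (-0.36).

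The biosynthetic lists held calls both ways, and several of their counts were near the background of all genes (32.7% called in CAD soma, 29.3% in N2A soma and 21% in N2A neurites). Of 13 genes for tRNA charging and export, 3 were higher and 2 lower in CAD soma. Xpot, the tRNA exportin, was 2.3-fold higher (log2 1.20, SE 0.06) and Tars, the threonyl-tRNA synthetase, 3.26-fold lower (-1.70, SE 0.06). In N2A neurites 1 was higher and 6 were lower. Of 9 genes for serine, one-carbon and proline synthesis, 5 were higher and 2 lower in CAD soma, with Psph, the enzyme after Psat1, at 0.42 (SE 0.09) and Cbs, which makes cystathionine, at -1.07 (SE 0.09). Of 10 amino acid transporters, 1 was higher and 2 were lower in CAD soma, and 3 were lower in N2A soma, where Slc7a3 (-0.58) and Slc1a5 (-0.53) fell most. Of 7 tested secreted and other ATF4 targets, 3 rose in CAD soma, led by Stc2 (0.41), and 2 fell in N2A soma, led by Vegfa (-0.70).

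The ER chaperones of the ATF6 and XBP1 branches, the other arms of the unfolded protein response, were lower where called in both lines. In CAD soma 8 of 12 were lower and none higher, with a median of -0.34, against 16.8% of genes called lower. In N2A soma 7 of 12 were lower and none higher, with a median of -0.31, against 10.9% called lower. Sdf2l1 (-0.65) and Pdia4 (-0.51) fell most in CAD soma, and Hspa5, the chaperone BiP, fell by 0.59 (SE 0.09) in N2A soma. CAD neurites held 5 lower, against 18.8% of genes called lower, and 2 under total-count scaling, which called 2065 of 17343 genes lower. N2A neurites held 2 lower, against 10.3% of genes, with a list median of 0.01. Of 10 mitochondrial chaperones and proteases 5 were higher in the soma of each line, with 1 lower in CAD and 2 in N2A. Of all genes 15.9% and 18.5% were called higher. Total-count scaling left 3 higher in each, where it called 2345 of 17343 genes higher in CAD soma and 2389 of 17912 in N2A soma. Lonp1, the matrix protease, rose in CAD soma (0.39, SE 0.06) and fell in N2A soma (-0.36, SE 0.12).

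**Figure D5:**
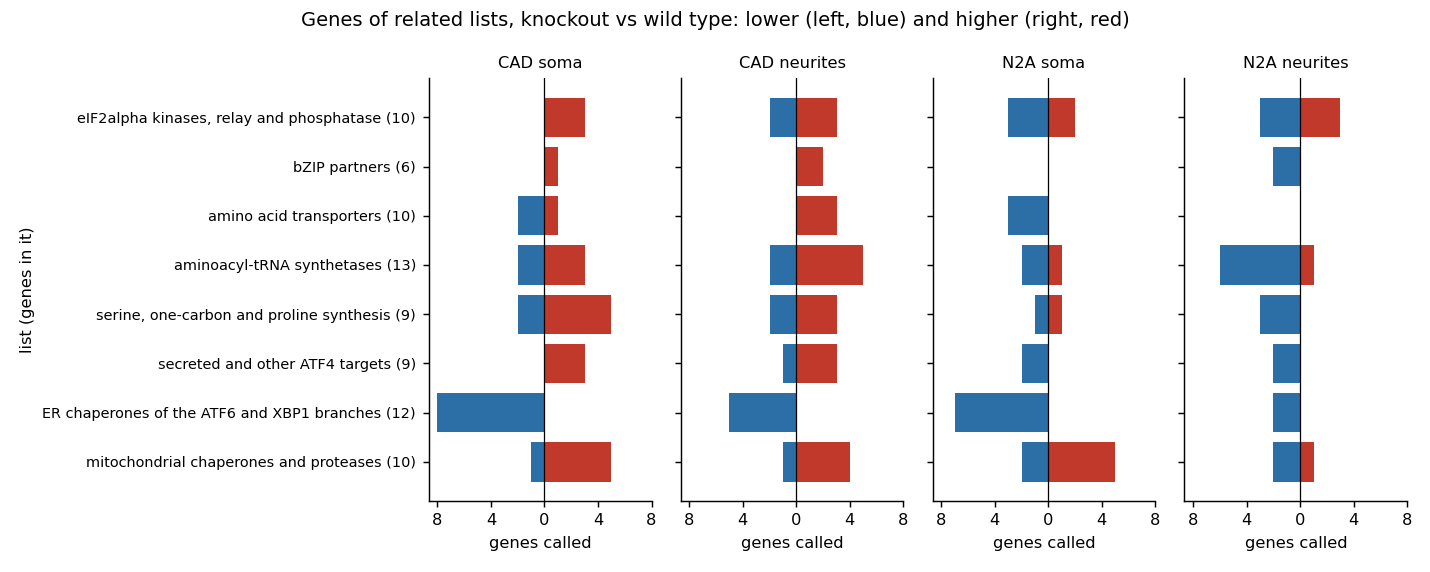
Number of genes called lower (left) and higher (right) in knockout against wild type for the 8 related lists (TMM scaling), with the number of genes in each list in brackets. ER chaperones are called lower only, at 8 of 12 in CAD soma and 7 of 12 in N2A soma, against 16.8% and 10.9% of all genes. The other lists hold calls both ways in at least 1 comparison or differ between the lines. Under upper-quartile scaling 2 ER chaperones are also called higher in N2A neurites.

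Across the 18 soma libraries, centred within each experiment, 9 of the 10 genes had a positive Pearson's r with the mean of the others. It ran from 0.38 for Ddit4 to 0.85 for Trib3, while Psat1 had r = -0.11. The share of all genes with such values was not computed. Among 13231 other genes the 5 most like the mean of the 10 were Gars (glycyl-tRNA synthetase, r = 0.93), Eif4ebp1 (the translation repressor 4E-BP1, 0.90), Srxn1 (sulfiredoxin, 0.88), Zyx (zyxin, a focal adhesion protein, 0.87) and Slc3a2 (a subunit of amino acid exchangers, 0.86). These values describe the libraries, which share depth and genotype, and carry no test. Gars and Slc3a2 are also on the lists above. None of the 5 was called in N2A soma, and Zyx was the only 1 called in CAD soma (0.23, SE 0.08, adjusted p = 0.0339). In N2A neurites all but Slc3a2 were called lower (-0.49 to -0.32), where 10.3% of all genes were. That share is no fair background, since the 5 were picked for following the 10 in soma libraries of the same experiments. Their calls are therefore no separate support. Slc3a2 was the only 1 called in CAD neurites (0.36, SE 0.08, adjusted p = 0.00251).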

How the data were processed

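The authors trimmed reads with cutadapt and quantified mm10 transcripts with Salmon (versions not given in the sources used here). The deposited files hold, for each transcript, an estimated count and its TPM. The study's methods name Gencode version 17. Here transcripts were summed to genes with GENCODE mouse release 21, which left at most 0.1294% of a library's counts without a gene, and estimated counts were rounded. Other files of the series were not used here.

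Comparisons used edgeR 4.0.16 in R 4.3.3 (TMM, filterByExpr by group, quasi-likelihood test, Benjamini-Hochberg over all genes tested, threshold 0.05) on the 4 groups of an experiment, and on 24 libraries for differences between lines. The same fit was made on transcripts. Intervals are 95% and cover the fitted error. Python 3.11.15, pandas 2.3.3, numpy 2.4.6 and matplotlib 3.10.9 made tables and figures. Tested on simulated data, the fit recovered 70.8% of genes changed by 1 (log2) in CAD soma over 16775 genes, 58.2% in N2A soma over 17333, 77.6% between transgenes in soma over 13665 and 51.6% for the soma difference between lines over 18638.

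The 10 genes and all lists were chosen with earlier results of these data known. Named were all 10 genes, at most the 2 largest called rises and falls of a list per comparison, the 5 genes most like the mean of the 10, and Tardbp. The transcripts of Psat1, total-count scaling and fits of only 6 libraries were chosen after seeing the data. A second annotated Ddit3 ID, with at most 1.035% of its counts, was left out. Replicates differed beyond counting noise in every group.

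Same-numbered wild-type and knockout soma libraries of N2A deviated together (r of 0.549, 0.123 and 0.324 over genes), so the replicate numbers were taken to pair them, from the data and not from the labels. No other genotype comparison passed this check, though CAD soma, with r of 0.482, 0.0894 and 0.264, differed little from N2A soma. The main fits used no replicate block in either line. Alternatives were DESeq2 1.42.0, upper-quartile and total-count scaling, 2 other filters, length-scaled counts, a threshold of 0.01, replicate blocks, and each library left out.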

Additional observations from a re-analysis of the deposited data

Results flagged for a closer look

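The responses of 11 gene and compartment pairs to knockout differed between the lines by the test of the difference itself, given as the N2A change minus the CAD change in log2. In soma these were Atf3 (-1.65), Ddit3 (-0.88) and Psat1 (0.58). In neurites they were Atf3 (-1.74), Ddit3 (-1.38), Atf4 (-0.73), Trib3 (-0.69), Chac1 (-0.69), Ddit4 (-0.54), Phgdh (-0.51) and Asns (-0.49). Among all genes 20.1% of soma and 15.6% of neurite responses differed. Groups of 3 are too small for the check of single outlying libraries. Line, clone and the response to doxycycline cannot be told apart in these differences.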

How the results depend on the processing

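Of the 66 results that passed the threshold, alternatives gave 1069 values, of which 954 kept direction and side of the threshold, 103 lost significance and 12 changed sign. The cause was not tested for any of these. Numbers of the 10 genes called moved as follows. In N2A soma 5 were called with at least 10 counts in every library, total-count or upper-quartile scaling, or the replicate block on only the 6 libraries compared, and 1 with length-scaled counts. For the soma response, 5 were called with DESeq2, total-count scaling or the replicate block and 7 with the filter of 10 counts or upper-quartile scaling. Total-count scaling called 27.1% of all genes in N2A soma and 14.5% for the soma response. For the N2A LR change 3 were called with DESeq2 and 0 with the stricter threshold of 0.01, length-scaled counts or upper-quartile scaling. The threshold of 0.01 left 2 for the WT transgene LR, 3 in N2A neurites and 5 in CAD neurites. For the CAD wild-type LR total-count scaling gave 2 calls, both lower: Sesn2, which had not been called, and Ddit4, which had been called higher. Among all 17343 genes 11741 were called lower there.

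The replicate block gave 4 calls in N2A soma, and on only the 6 libraries compared 8 in CAD soma. The numbers were not taken to pair the CAD soma samples (r of 0.482, 0.0894 and 0.264), though these values differ little from those of N2A soma. The replicate block ended no call of a gene.

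Signs changed with total-count scaling for the CAD wild-type LR of Ddit3 (-0.23), Atf3 (-0.03), Asns (-0.17), Trib3 (-0.23), Chac1 (-0.17), Psat1 (-0.07), Phgdh (-0.04) and Ddit4 (-0.34), and for the WT transgene LR of Atf4 (-0.14), Asns (-0.29), Psat1 (-0.13) and Phgdh (-0.22). All other sign changes were of uncalled values near zero. In N2A soma total-count and upper-quartile scaling gave Atf4 -0.03 and -0.04, Psat1 -0.00 and -0.02, and Phgdh -0.04 and -0.05, with Phgdh at -0.00 under the filter of 10 counts and the block on 6 libraries. Asns there was 0.01 with DESeq2 and 0.00 with length-scaled counts or no filter, and Ddit4 0.02, 0.06 and 0.01. The soma response of Asns was -0.05 with DESeq2, -0.14 with the filter of 10 counts or total-count scaling, -0.02 with length-scaled counts and -0.18 with upper-quartile scaling, and that of Ddit4 was 0.00 with no filter. Between wild-type lines Psat1 was 0.04 with the filter of 10 counts, 0.08 with length-scaled counts, 0.00 with total-count and 0.09 with upper-quartile scaling, and Ddit4 was -0.02 with no filter.

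With each library left out in turn, the calls numbered 5 to 8 in CAD soma, 5 to 8 in CAD neurites, 1 to 5 in N2A soma, 3 to 7 in N2A neurites, 0 to 4 for the N2A LR change, 2 to 5 for the WT transgene LR, 3 to 6 for the soma response and 6 to 9 for the neurite response. Signs changed only for uncalled values, with ranges in CAD soma of -0.01 to 0.08 for Asns and -0.00 to 0.14 for Sesn2, in CAD neurites of -0.06 to 0.07 for Sesn2, and in N2A soma of -0.01 to 0.25 for Atf4, -0.06 to 0.14 for Asns, -0.05 to 0.26 for Phgdh and -0.06 to 0.16 for Ddit4. The soma response ran from -0.09 to 0.12 for Asns and from -0.17 to 0.03 for Ddit4, and Ddit4 between wild-type lines from -0.07 to 0.13. At the lower depth of the transgene libraries Atf3, the least abundant of the 10, had the widest intervals.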
